A study of Gallus gallus with 16 samples.

Results

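Heat shock proteins and molecular chaperones were followed in chicken embryos, in tissue around the spinal cord, across 5 comparisons of nicotine and embryonic day. Members were chosen by a rule on gene symbols, set with earlier results of these data known. It takes the HSP90, HSPA, HSPB, HSPD and HSPH proteins, heat shock factors, DNAJ proteins and subunits of the CCT chaperonin. It also takes BAG proteins, protein disulfide isomerases of the PDIA series, calreticulin and calnexin. The rule found 66 of the 21357 loci that the authors tabled, 9225 of which carry a symbol. They comprise HSF2, 3 HSP90 proteins, 9 HSPA proteins with HSPH1, the mitochondrial chaperonin HSPD1, 7 CCT subunits including TCP1, 28 DNAJ proteins, 3 BAG proteins with HSPBP1, 4 small HSPB proteins, and 5 endoplasmic reticulum (ER) proteins. The last group holds CALR, CANX, PDIA3, PDIA5 and PDIA6. A further 3 were caught by name only and have other known roles: HSPB11 (IFT25, part of the machinery that moves cargo in cilia), HSF2BP (a partner of HSF2 that acts in meiosis in mammals) and HSPBAP1 (named as a partner of HSPB1). HSF1, HSPE1 and the CCT6 subunit of the chaperonin were not analysed here.

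The embryos were wild-type domestic chickens. Fertile eggs were injected before incubation with nicotine hydrogen bitartrate at 30 ng/ml, scaled to the weight of the egg, or with a matching dose of the vehicle, sodium bitartrate. Both were dissolved in chicken Ringer's solution, so every group carried an injection, and no uninjected group was analysed here. Embryos were taken at day 5 or day 7, which gives 4 groups of 4 libraries: nicotine at day 5, vehicle at day 5, nicotine at day 7 and vehicle at day 7. RNA came from a dissected piece that contains the spinal cord, from mid neck to the rear border of the wing bud, so other tissues of that region can be present.

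Chaperones bind proteins that are not yet folded, or no longer folded, and keep them from clumping until they reach their shape. HSP70 proteins (HSPA) bind short exposed stretches of a protein in a cycle that burns ATP, J-domain proteins (DNAJ) deliver the client and start the cycle, and BAG proteins, HSPH1 and HSPBP1 help the nucleotide to leave. HSP90 proteins act later, on kinases, receptors and other nearly folded clients. The CCT ring, built from TCP1 and the CCT subunits, encloses newly made actin and tubulin, and HSPD1 forms a like chamber in mitochondria. In the ER, HSPA5 and HSP90B1 hold new secretory proteins, calnexin and calreticulin bind their sugar chains, and protein disulfide isomerases form their disulfide bonds. Under heat or other stress to proteins, heat shock factors raise many of the cytosolic genes, and the unfolded protein response raises many of the ER genes. In growing embryonic tissue many of the same genes are on without stress.

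Total counts ran from 21801247 to 29002315 per library. A search over sets of 1 library per group sought loci under 0.05 CPM (counts scaled by library size) in all 4. These loci had to reach 0.5 CPM in each of the other 12 libraries. The set with most such loci, 57, was replicate 4 of nicotine at day 5 and replicate 2 of vehicle at day 5, of nicotine at day 7 and of vehicle at day 7. The form of 1 library per group was fixed by the search, and counts for other sets are not given here. The deposited tables give log2 fold changes and p-values without expression levels or standard errors. Standard errors and 95% intervals given with table values were recovered from each log2 fold change and its p-value, under a normal test statistic. Variances recovered this way for nicotine at day 5 and at day 7 summed to that of their difference at a median ratio of 1.0000 (range 0.9982 to 1.0063 over 20867 loci). The sum for day 7 against day 5 in nicotine and in vehicle did so too (0.9977 to 1.0039). The 5 tables thus come from 1 fit. The 2 nicotine comparisons share no libraries with each other, nor do the 2 day comparisons, while each nicotine comparison shares 1 group with each day comparison. The labels describe the 4 embryos of a group as biological replicates. In bulk tissue, fewer cells of a type and less RNA per cell cannot be told apart. A gene is called higher or lower where the adjusted p is under 0.05, in the authors' deposited table or in the test on counts.

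More chaperone genes fell than rose between day 5 and day 7, among them the CCT subunits, HSPD1, both cytosolic HSP90 genes and much of the HSP70 system. In nicotine embryos, the authors' deposited table called 4 members higher and 30 lower at day 7 out of 66, against 15.9% higher and 15.3% lower among all 19619 loci with an adjusted p. Loci with a symbol, which exclude unnamed assembled transcripts, gave 20.2% higher and 20.6% lower among 9007. In vehicle embryos, 4 members were higher and 35 lower in the authors' deposited table, against 18.1% higher and 18.7% lower among all 20446 loci, and 20.2% higher and 27.4% lower among 9131 loci with a symbol. The median log2 fold change of the members was -0.22 in nicotine embryos, where the median of all loci was 0.01 and that of loci with a symbol -0.01, by the authors' deposited table. In vehicle embryos it was -0.28, where all loci had 0.04 and loci with a symbol -0.05, again by the authors' deposited table. The symbols chosen are mostly of widely expressed genes, and the difference between members and other loci was not tested. The same shares of all loci stand behind the counts by family and gene list below, which are small and were not tested against them.

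**Figure D1:**
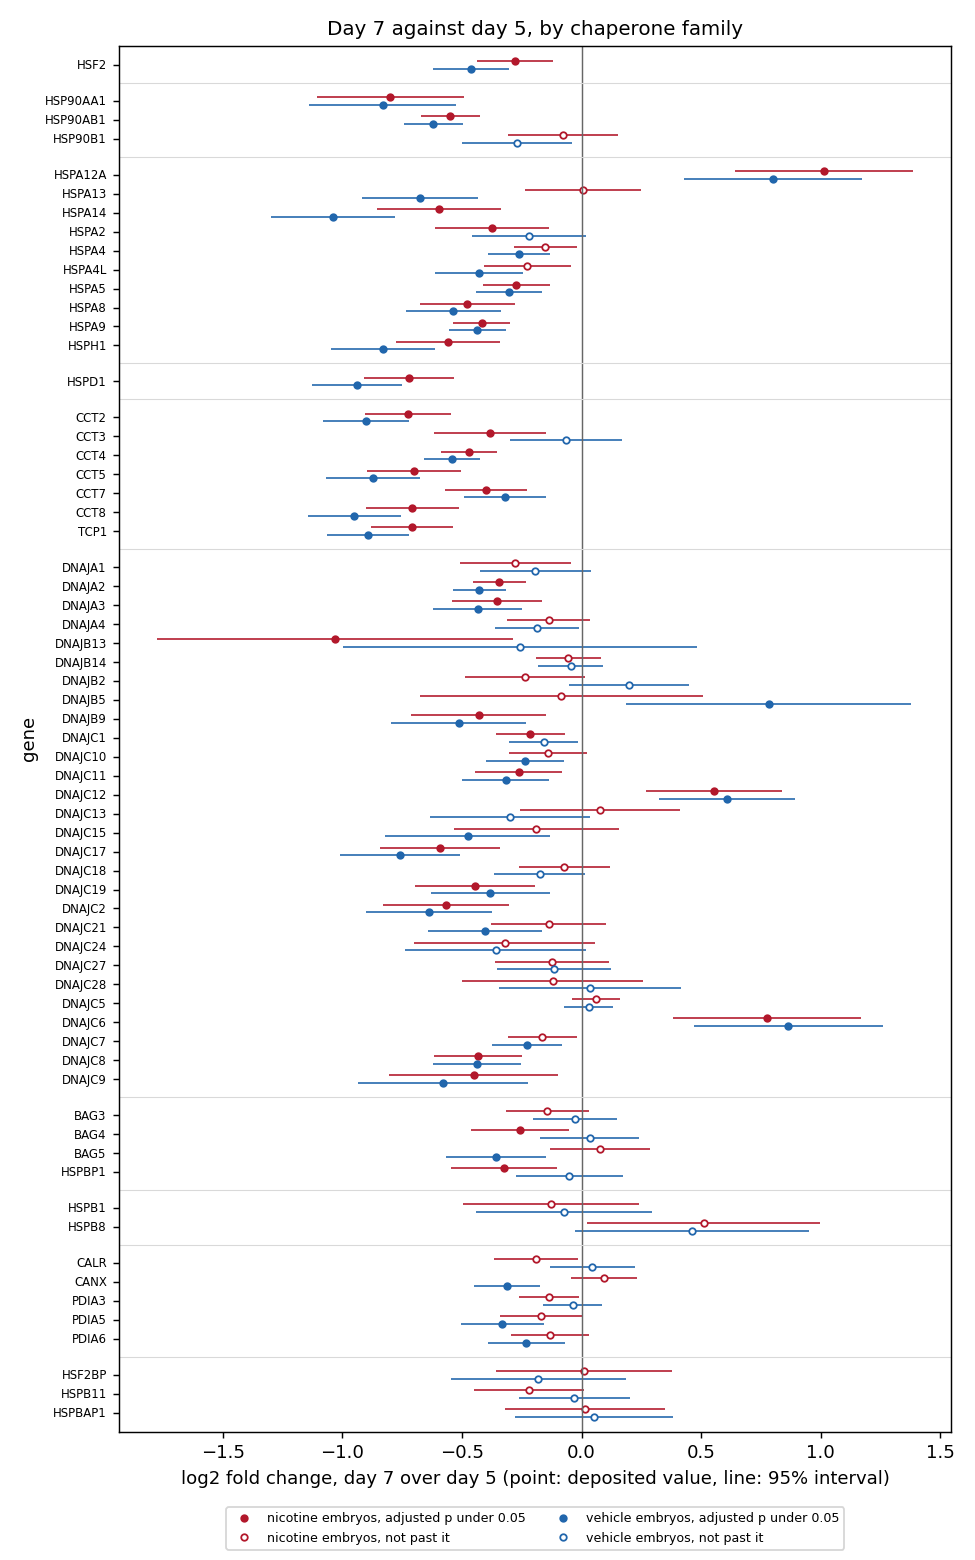
Day 7 against day 5 for 64 chaperone genes, grouped by family, in nicotine (red) and vehicle (blue) embryos. The x axis is the authors' log2 fold change (day 7 over day 5), bars are 95% intervals recovered from the authors' p-values, and filled points have an adjusted p under 0.05; HSPB3 and HSPB7 are left out and shown by library instead. Points of the CCT subunits and HSPD1 lie left of 0 in both treatments, and HSPA12A, DNAJC6 and DNAJC12 lie to the right in both.

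The day comparisons in nicotine and in vehicle use separate embryos, and 24 members were lower at day 7 in both. These are 80% of the 30 lower in nicotine embryos and 68.6% of the 35 lower in vehicle embryos, per the authors' deposited tables. Among 9007 loci with a symbol, 1490 were lower in both, which is 80.5% of those lower in nicotine embryos and 59.6% of those lower in vehicle embryos in the authors' deposited tables, so such an overlap is common to many genes. Another 3 were higher in both (HSPA12A, DNAJC12 and DNAJC6), and none moved in opposite directions past the threshold. Of the 66 members, 56 (84.8%) had the same sign in both, as had 76.5% of those loci with a symbol, in the authors' deposited tables. The members' log2 fold changes had a Pearson r of 0.68 and a Spearman rho of 0.75 in the authors' deposited tables, against 0.56 and 0.71 over 9007 loci with a symbol. These values describe genes of the same libraries, and genes are not independent replicates. For 22 of the 24 genes lower in both, the log2 fold change in nicotine embryos was nearer to 0, with a median gap of 0.08 in the authors' deposited tables. Loci with a symbol that were lower in both had the same lean, with a median gap of 0.10, and 72.3% of them were nearer to 0 in nicotine embryos, per the authors' deposited tables. The difference itself passed for none of these 24.

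HSF2, the one heat shock factor listed, fell at day 7. In the authors' deposited table its log2 fold change was -0.28 ± 0.08 (SE, adjusted p = 0.0033) in nicotine embryos and -0.46 ± 0.08 (adjusted p = 1.55e-07) in vehicle embryos. Both cytosolic HSP90 genes fell too. HSP90AA1, the heat-inducible form in mammals, had -0.80 ± 0.16 in nicotine embryos (adjusted p = 5.25e-06) and -0.83 ± 0.16 in vehicle embryos (adjusted p = 1.24e-06), per the authors' deposited table. HSP90AB1, the constitutive form, had -0.55 ± 0.06 in nicotine (adjusted p = 1.06e-15) and -0.62 ± 0.06 in vehicle embryos (adjusted p = 3.49e-20) in the authors' deposited table. The ER paralogue HSP90B1 did not pass in either, with -0.08 ± 0.12 (adjusted p = 0.684) in nicotine and -0.27 ± 0.12 (adjusted p = 0.058) in vehicle embryos by the authors' deposited table.

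In the HSP70 family and HSPH1, 1 of 10 genes was higher and 6 were lower at day 7 in nicotine embryos, against 1 higher and 8 lower in vehicle embryos, in the authors' deposited tables. The constitutive cytosolic HSPA8 fell in both. Its authors' deposited log2 fold change was -0.48 ± 0.10 in nicotine embryos (adjusted p = 2.76e-05) and -0.54 ± 0.10 in vehicle embryos (adjusted p = 1.31e-06). HSPA9, the mitochondrial HSP70 that pulls imported proteins inward, had -0.42 ± 0.06 (adjusted p = 5.19e-10) and the ER form HSPA5 had -0.27 ± 0.07 (adjusted p = 0.000811) in nicotine embryos, per the authors' deposited table. In vehicle embryos the authors' deposited table gave -0.44 (adjusted p = 4.42e-11) for HSPA9 and -0.30 (adjusted p = 0.000113) for HSPA5. HSPH1, an exchange factor induced by heat in mammals, had -0.56 ± 0.11 in nicotine (adjusted p = 6.81e-06) and -0.83 ± 0.11 in vehicle embryos (adjusted p = 3.31e-12), in the authors' deposited table.

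HSPA14 works with DNAJC2 at the ribosome, on chains as they emerge, and both fell. HSPA14 had -0.60 ± 0.13 (adjusted p = 6.69e-05) in nicotine and -1.04 ± 0.13 (adjusted p = 2.36e-13) in vehicle embryos, the lowest vehicle value outside HSPB3 and HSPB7 in the authors' deposited table. DNAJC2 had -0.57 ± 0.14 (adjusted p = 0.000233) in nicotine and -0.64 ± 0.14 (adjusted p = 1.91e-05) in vehicle embryos, per the authors' deposited table. HSPA12A went the other way. This distant HSP70 relative, abundant in mammalian brain, rose by 1.01 ± 0.19 (adjusted p = 1.73e-06) in nicotine and by 0.80 ± 0.19 (adjusted p = 0.000152) in vehicle embryos in the authors' deposited table.

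Nearly every listed chaperonin gene fell. All 7 listed CCT subunits were called lower in nicotine embryos and 6 of 7 in vehicle embryos in the authors' deposited tables, with medians of -0.70 in nicotine and -0.87 in vehicle. TCP1 had -0.71 ± 0.09 (adjusted p = 8.3e-14) in nicotine and -0.89 ± 0.09 (adjusted p = 1.19e-21) in vehicle embryos, the smallest adjusted p of any member there, per the authors' deposited table. CCT2, CCT5 and CCT8 lay close to it, from -0.72 to -0.70 in nicotine and from -0.95 to -0.87 in vehicle embryos, per the authors' deposited tables. CCT4 had -0.47 in nicotine (adjusted p = 9.67e-13) and -0.54 in vehicle embryos (adjusted p = 5.09e-17) in the authors' deposited table. CCT7 and CCT3 fell less. CCT7 had -0.40 (adjusted p = 5.62e-05) in nicotine and -0.32 (adjusted p = 0.00127) in vehicle embryos, and CCT3 had -0.38 (adjusted p = 0.00638) in nicotine and -0.06 (adjusted p = 0.738) in vehicle embryos, per the authors' deposited tables. For CCT3 the difference between the treatments was -0.32 ± 0.17 (adjusted p = 0.275) in the authors' deposited table, which did not pass. HSPD1, the mitochondrial chaperonin, had -0.72 ± 0.10 (adjusted p = 7.62e-12) in nicotine and -0.94 ± 0.10 (adjusted p = 7.25e-20) in vehicle embryos, per the authors' deposited table.

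The J-domain proteins were mixed, with 2 of 28 higher and 11 lower at day 7 in nicotine embryos, against 3 higher and 13 lower in vehicle embryos, per the authors' deposited tables. Their medians in the authors' deposited tables were -0.20 in nicotine and -0.25 in vehicle embryos. DNAJA2, a general cytosolic partner of HSPA8, fell by 0.34 ± 0.06 (adjusted p = 3.19e-08) in nicotine and by 0.43 ± 0.06 (adjusted p = 1.96e-12) in vehicle embryos in the authors' deposited table. A pair of nuclear members linked to splicing in mammals fell as well. DNAJC17 had -0.59 ± 0.13 in nicotine (adjusted p = 4.25e-05) and -0.76 ± 0.13 in vehicle embryos (adjusted p = 4.91e-08), and DNAJC8 had -0.43 ± 0.09 (adjusted p = 4.91e-05) in nicotine and -0.44 ± 0.09 (adjusted p = 2.92e-05) in vehicle embryos, per the authors' deposited tables. Of the mitochondrial members, DNAJA3 had -0.35 in nicotine and -0.44 in vehicle embryos, and DNAJC19 had -0.45 in nicotine and -0.38 in vehicle embryos, all 4 of them called lower in the authors' deposited tables.

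DNAJC6 and DNAJC12 rose. DNAJC6 (auxilin) strips clathrin from vesicles in neurons, and had 0.78 ± 0.20 (adjusted p = 0.000815) in nicotine and 0.86 ± 0.20 (adjusted p = 0.000116) in vehicle embryos, per the authors' deposited table. DNAJC12, which helps to fold the aromatic amino acid hydroxylases, had 0.55 ± 0.15 (adjusted p = 0.000972) in nicotine and 0.61 ± 0.15 (adjusted p = 0.000168) in vehicle embryos, in the authors' deposited table. DNAJC5, the cysteine string protein of synaptic vesicles, was not called, with 0.06 ± 0.05 (adjusted p = 0.416) in nicotine and 0.03 ± 0.05 (adjusted p = 0.713) in vehicle embryos by the authors' deposited table. DNAJB5 was called higher in vehicle embryos alone, at 0.78 ± 0.30 (adjusted p = 0.03) against -0.08 ± 0.30 (adjusted p = 0.884) in nicotine embryos, and in the authors' deposited table the difference had an adjusted p of 0.243. DNAJB13, a protein of the cilium's shaft, was called lower in nicotine embryos, at -1.03 ± 0.38 (adjusted p = 0.0248) against -0.26 ± 0.38 (adjusted p = 0.652) in vehicle embryos, and its difference carries none in the authors' deposited table.

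Among the 5 ER proteins outside the HSP families, none was called in nicotine embryos and 3 were lower in vehicle embryos at day 7, per the authors' deposited tables. These were CANX, PDIA5 (-0.33 ± 0.09, adjusted p = 0.000891) and PDIA6 (-0.23 ± 0.08, adjusted p = 0.0168), by the authors' deposited table for vehicle. In nicotine embryos PDIA5 had -0.17 (adjusted p = 0.145) and PDIA6 -0.13 (adjusted p = 0.235), per the authors' deposited table, and neither difference passed. CALR, the soluble partner of calnexin, had -0.19 ± 0.09 in nicotine embryos (adjusted p = 0.0977) and 0.05 ± 0.09 in vehicle embryos (adjusted p = 0.755), in the authors' deposited table. When the members were sorted by compartment, after their values had been seen, 5 of 6 mitochondrial members were lower in nicotine embryos and 6 of 6 in vehicle embryos in the authors' deposited tables. Of 11 ER members, 3 were lower in nicotine and 7 in vehicle embryos, with none higher, in the authors' deposited tables. The sorting was not complete, so these counts depend on which genes were placed. DNAJC28, DNAJB14 and DNAJC18 were put in neither compartment. None of them was called in either day comparison, with -0.12, -0.06 and -0.07 in nicotine and 0.04, -0.05 and -0.18 in vehicle embryos, per the authors' deposited tables. Among loci with a symbol 20.6% were lower in nicotine and 27.4% in vehicle embryos, so the ER count in nicotine embryos lies near that share.

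Of the BAG proteins and HSPBP1, 2 of 4 were called lower at day 7 in nicotine embryos and 1 of 4 in vehicle embryos, in the authors' deposited tables. In nicotine embryos these were BAG4 and HSPBP1, and in vehicle embryos BAG5. BAG4 had -0.26 ± 0.11 (adjusted p = 0.0474) in nicotine and 0.03 (adjusted p = 0.852) in vehicle embryos, by the authors' deposited tables. HSPBP1 had -0.32 ± 0.11 (adjusted p = 0.0177) in nicotine and -0.05 (adjusted p = 0.781) in vehicle embryos, by the authors' deposited tables. BAG4's call ended, at an adjusted p of 0.0513, when the authors' deposited p-values were adjusted over every listed locus. BAG3, which pairs HSP70 with small heat shock proteins, had -0.14 ± 0.09 (adjusted p = 0.231) in nicotine and -0.03 ± 0.09 (adjusted p = 0.865) in vehicle embryos, per the authors' deposited table. Neither HSPB1 nor HSPB8, the small heat shock proteins that hold unfolded clients without ATP, passed. HSPB1 had -0.13 ± 0.19 in nicotine and -0.07 ± 0.19 in vehicle embryos, and HSPB8 had 0.51 ± 0.25 in nicotine and 0.46 ± 0.25 in vehicle embryos, per the authors' deposited tables. HSPB11, HSF2BP and HSPBAP1 were called in neither day comparison.

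Partners of these chaperones outside the rule were counted from lists of pathway genes. Of 15 genes on the co-chaperone list 9 were tabled, HSPBP1 included, and at day 7 the authors' deposited tables called 1 higher and 4 lower in nicotine embryos and 0 higher and 5 lower in vehicle embryos. ST13, which links HSP70 to HSP90, had -0.48 in nicotine (adjusted p = 3.46e-08) and -0.73 in vehicle embryos (adjusted p = 5.35e-18), per the authors' deposited table. FKBP4 had -0.47 in nicotine and -0.57 in vehicle embryos, and AHSA1, which speeds HSP90's use of ATP, had -0.37 in nicotine and -0.39 in vehicle embryos, all lower in the authors' deposited tables. The one higher call was UNC45B, a chaperone of muscle myosin, at 0.63 in nicotine embryos (adjusted p = 0.0468) against 0.22 in vehicle embryos (adjusted p = 0.566), per the authors' deposited tables.

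Prefoldin hands actin and tubulin chains to the CCT ring. Of its 6 subunits 4 were tabled, and 3 were called lower in nicotine embryos and 2 in vehicle embryos in the authors' deposited tables. PFDN4 was lower in both, at -0.58 in nicotine and -0.69 in vehicle embryos, by the authors' deposited tables. Of 8 further mitochondrial folding and protease genes 5 were tabled, with 4 lower in nicotine embryos and 4 in vehicle embryos in the authors' deposited tables. GRPEL1, the exchange factor of HSPA9, was one of them, at -0.66 in nicotine (adjusted p = 7.16e-07) and -0.77 in vehicle embryos (adjusted p = 3.19e-09), per the authors' deposited table.

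ER folding genes outside the rule were split. Of 16 on the list 11 were tabled, with 2 higher and 0 lower in nicotine embryos and 2 higher and 4 lower in vehicle embryos, in the authors' deposited tables. The 2 higher genes were the same in both treatments and both serve collagen. SERPINH1, the collagen chaperone HSP47, rose by 0.40 in nicotine (adjusted p = 0.01) and by 0.78 in vehicle embryos (adjusted p = 5.19e-08), and FKBP10 by 0.54 in nicotine (adjusted p = 0.000415) and by 1.02 in vehicle embryos (adjusted p = 1.28e-12), per the authors' deposited tables. Of 18 genes of the unfolded protein response and ER-associated degradation 11 were tabled, with 3 higher and 2 lower in nicotine and 2 higher and 2 lower in vehicle embryos in the authors' deposited tables. ATF6, a sensor of unfolded proteins in the ER, was higher in both, at 0.33 in nicotine and 0.37 in vehicle embryos, while XBP1, another regulator of that response, had -0.06 in nicotine and -0.07 in vehicle embryos and did not pass, per the authors' deposited tables. ASNS (-0.65 in nicotine, -0.98 in vehicle) and DERL2 (-0.39 in nicotine, -0.55 in vehicle) were lower in both. EIF2AK3 (0.52) and EDEM3 (0.45) were called higher in nicotine embryos alone, and HERPUD1 (0.36) in vehicle embryos alone, by the authors' deposited tables.

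**Figure D2:**
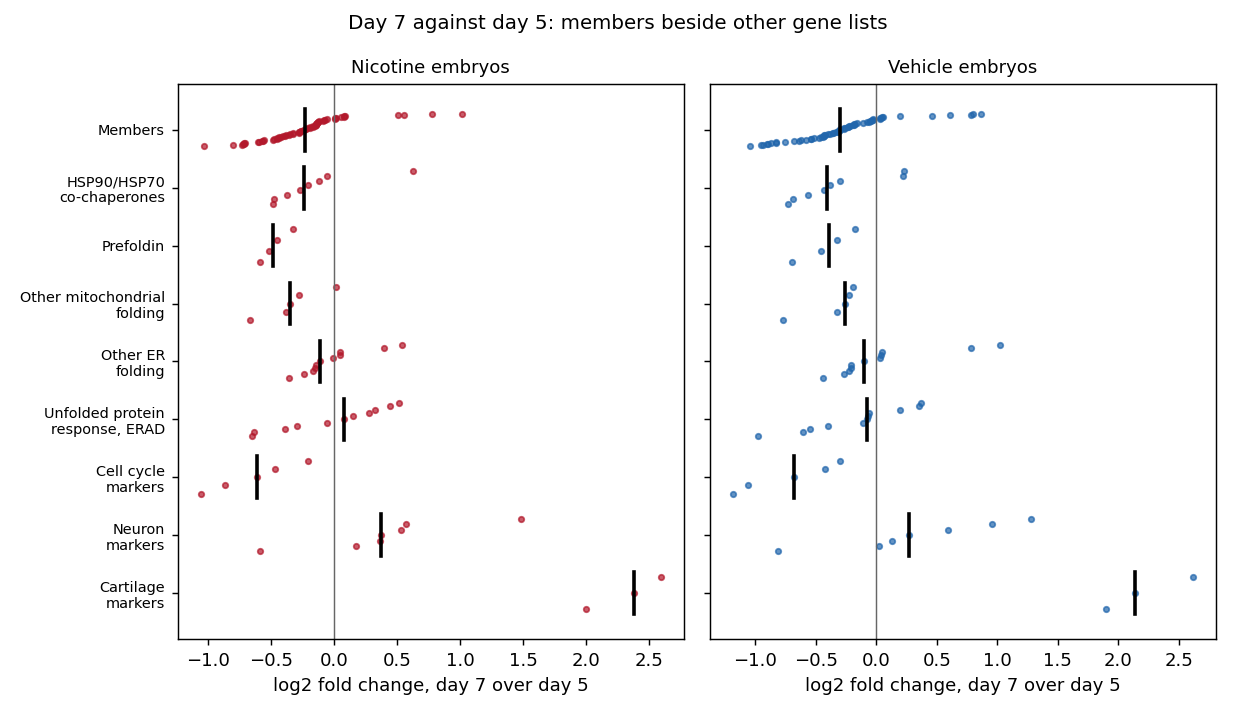
Day 7 against day 5 for the chaperones, the pathway lists and the marker lists, in nicotine (red) and vehicle (blue) embryos. Each point is 1 gene's log2 fold change (day 7 over day 5) in the authors' deposited tables, and bars are medians; height within a row only separates the points. The top row (members) holds the chaperones. HSPB3 and HSPB7 are left out, and HSPBP1 is drawn with the chaperones only. The medians of the cell cycle genes (-0.61 in nicotine, -0.68 in vehicle) lie below 0 and those of the cartilage genes (2.38 in nicotine, 2.14 in vehicle) above it.

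Markers of cell types moved between the days as well. All 5 tabled cell cycle genes of 8 were lower at day 7 in nicotine and in vehicle embryos, with medians of -0.61 in nicotine and -0.68 in vehicle, per the authors' deposited tables. The 3 tabled cartilage genes of 6 were higher in both, with medians of 2.38 in nicotine and 2.14 in vehicle embryos in the authors' deposited tables. Of 7 tabled spinal cord neuron markers of 12, 1 was higher and 1 lower in nicotine embryos, against 3 higher and 1 lower in vehicle embryos, by the authors' deposited tables. SNAP25, a protein of the synapse, was higher in both, at 1.49 in nicotine and 1.28 in vehicle embryos in the authors' deposited tables. Of 4 tabled neural progenitor markers of 8, 3 were lower and none higher in nicotine embryos, and 2 were lower and 1 higher in vehicle embryos, per the authors' deposited tables. Of 6 tabled muscle markers of 12, 2 were higher and none lower in nicotine embryos, and 1 was higher and 2 lower in vehicle embryos, per the authors' deposited tables. Of 3 tabled epidermal markers of 5, 3 were lower in nicotine and 1 in vehicle embryos, and of 2 tabled blood and endothelial markers of 6 none was called, by the authors' deposited tables. The part of these cell types in the fall of the chaperones was not tested. Read counts were available for 1 neuronal and 1 epidermal marker: CHAT, the enzyme that makes acetylcholine, had 16 to 75 counts per library and ESRP1 had 19 to 98, and neither was at 0 in any library.

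Nicotine changed few chaperones. At day 5 none of the 61 members with an adjusted p was called higher and 2 were lower in the authors' deposited table, against 0.761% higher and 1.96% lower among 11826 loci. The median log2 fold change was -0.01 over all 66 members, those without an adjusted p included. Over loci with an adjusted p it was -0.01 for all loci and -0.05 for loci with a symbol, in the authors' deposited table. At day 7 the authors' deposited table called 0 of 66 members higher and 0 lower, against 0.220% and 0.173% of 21357 loci. The median there was 0.05 for the members, 0.01 for all loci and 0.03 for loci with a symbol, per the authors' deposited table. An unadjusted p under 0.05 was given to 9 of 61 members at day 5 (14.8%) and to 3 of 66 at day 7 (4.55%), where all loci had 21.7% at day 5 and 5.33% at day 7, in the authors' deposited tables. Both counts of calls lie near the small shares called among all loci.

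**Figure D3:**
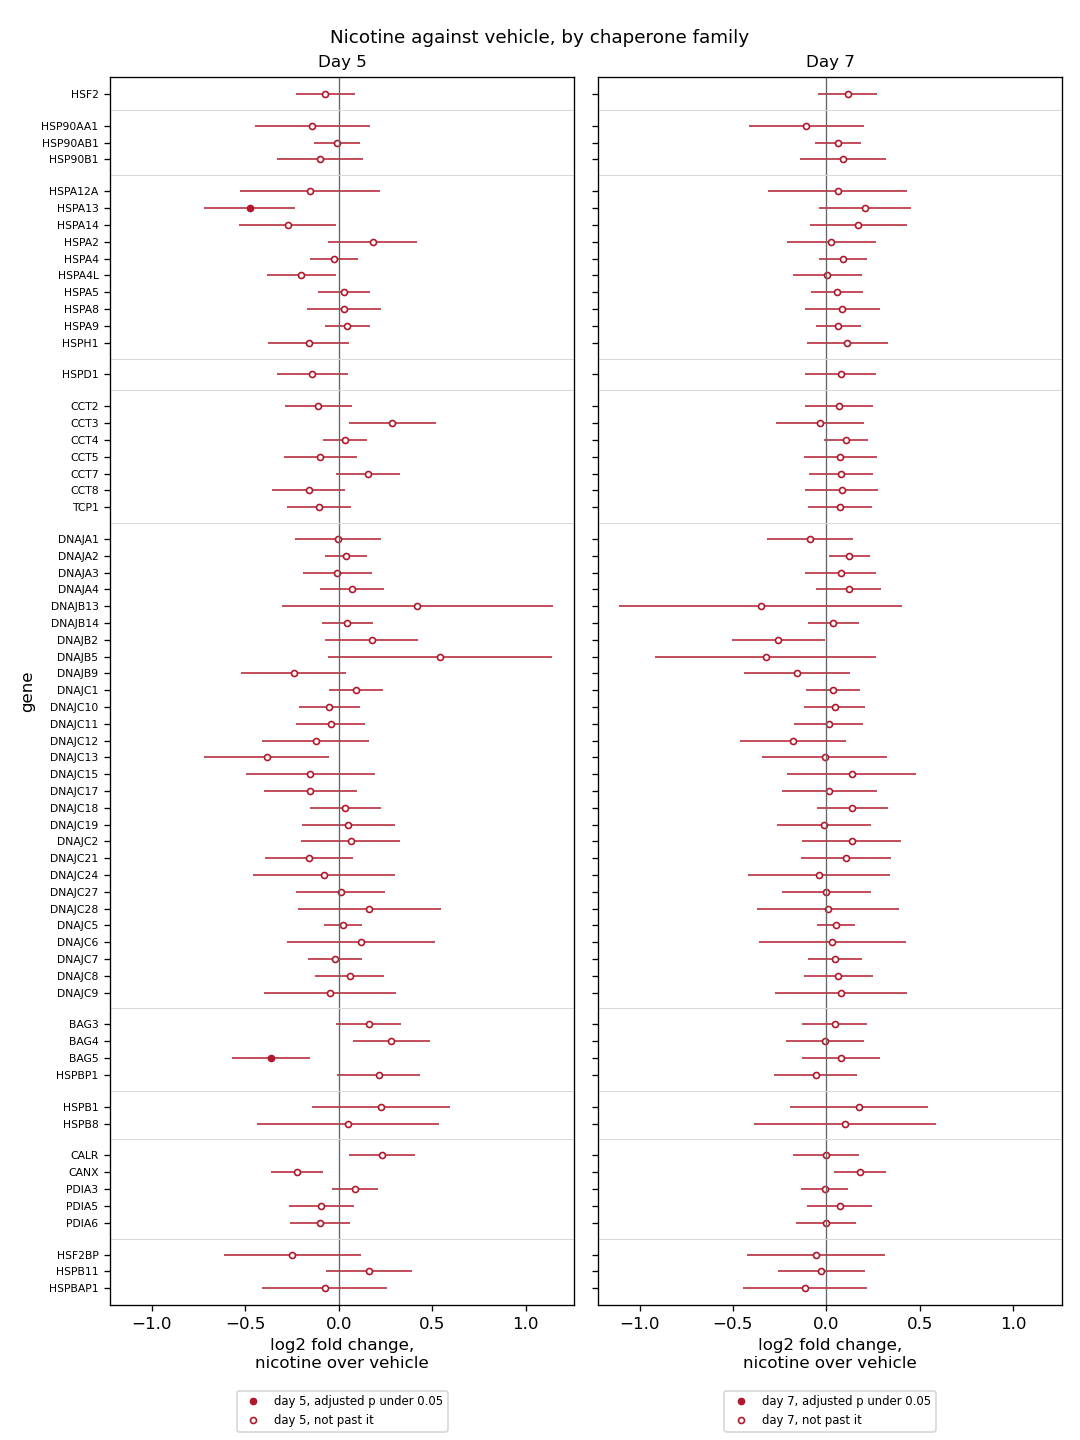
Nicotine against vehicle at day 5 (left) and day 7 (right) for 64 chaperone genes, grouped by family. The x axis is the authors' log2 fold change (nicotine over vehicle) and bars are 95% intervals recovered from the authors' p-values; filled points have an adjusted p under 0.05, and HSPB3 and HSPB7 are left out. HSPA13 and BAG5 are filled at day 5 and no gene is filled at day 7.

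Most of the intervals were narrow. Without HSPB3 and HSPB7, which rest on few counts, the log2 fold changes at day 5 ran from -0.48 ± 0.12 (HSPA13) to 0.54 ± 0.31 (DNAJB5). Of these, 56 of 64 lay within 0.25 of 0 in the authors' deposited table. For 50 of them the whole 95% interval lay within 0.5 of 0, a bound that the recovered errors of the authors' deposited table allow. At day 7 the range was -0.35 ± 0.39 (DNAJB13) to 0.21 ± 0.12 (HSPA13), with 61 of 64 within 0.25 of 0 and 59 intervals within 0.5, by the authors' deposited table. DNAJB5 and DNAJB13 had wide intervals and carry no adjusted p at day 5, so the ends of the ranges that they set are imprecise. Some stress-inducible cytosolic genes, which were singled out after their values had been seen and are not a full list of such genes, showed no call. At day 7 HSP90AA1 had -0.11 ± 0.16, HSPH1 0.11 ± 0.11, DNAJA1 -0.09 ± 0.12, BAG3 0.04 ± 0.09 and HSPB1 0.17 ± 0.19 in the authors' deposited table. At day 5 HSP90AA1 had -0.14 ± 0.16, HSPH1 -0.16 ± 0.11, DNAJA1 -0.00 ± 0.12, BAG3 0.16 ± 0.09 and HSPB1 0.23 ± 0.19 in the authors' deposited table. The factor HSF2 had 0.11 ± 0.08 at day 7 and -0.07 ± 0.08 at day 5, by the authors' deposited table. Nor was a call made for HSPA5 or HSP90B1, which the unfolded protein response raises in mammals. HSPA5 had 0.06 ± 0.07 at day 7 and 0.03 ± 0.07 at day 5, and HSP90B1 had 0.09 ± 0.12 at day 7 and -0.10 ± 0.12 at day 5, by the authors' deposited tables. CALR had -0.00 ± 0.09 at day 7 and 0.23 ± 0.09 (adjusted p = 0.125) at day 5, by the authors' deposited table.

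HSPA13 and BAG5 were the 2 members called lower in nicotine embryos at day 5 by the authors' deposited table. On the counts, where both could not be picked out by symbol, edgeR called 0 of 18394 loci for nicotine at day 5. DESeq2 called 286 loci on the same counts, so that 0 depends on the test and does not decide on these genes. HSPA13 is an HSP70 relative bound to the ER membranes in mammals that lacks the usual client-binding part. Its log2 fold change was -0.48 ± 0.12 (adjusted p = 0.0191), a level 0.718 times that of vehicle embryos, in the authors' deposited table. BAG5, an exchange factor of HSP70 with several BAG domains, had -0.36 ± 0.11 (adjusted p = 0.0391) in the authors' deposited table. BAG5's call ended, at an adjusted p of 0.0522, when the authors' deposited p-values were adjusted over every listed locus. CANX, the membrane-bound chaperone of glycoproteins, came next by p at -0.22 ± 0.07 (adjusted p = 0.0557) and did not pass in the authors' deposited table. At day 7 the smallest p-values belonged to CANX (0.18 ± 0.07, adjusted p = 0.609), DNAJA2 (0.12 ± 0.06, adjusted p = 0.839) and DNAJB2 (-0.26 ± 0.13, adjusted p = 0.896), none of them past the threshold in the authors' deposited table.

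By the authors' deposited table, the nicotine effect differed between the days for 2 members. Of the 62 with an adjusted p for the difference (day 7 minus day 5), 2 were higher and none lower in the authors' deposited table, against 1.57% and 0.688% of 12651 loci. The median difference was 0.06 over all 66 members, those without an adjusted p included. Over loci with an adjusted p it was 0.04 for all loci and 0.08 for loci with a symbol, by the authors' deposited table. For HSPA13 the difference was 0.68 ± 0.17 (adjusted p = 0.0205), with 0.21 ± 0.12 (adjusted p = 0.9996) at day 7 against the lower level at day 5, in the authors' deposited table. For CANX it was 0.40 ± 0.10 (adjusted p = 0.0169), in the authors' deposited table. BAG5 had 0.44 ± 0.15 (adjusted p = 0.0899), which did not pass in the authors' deposited table. On the counts edgeR called 0 of 18394 loci for this difference, and these genes could not be picked out there by symbol. DESeq2 did call loci for it on the same counts, so the 0 depends on the test and does not decide on these genes.

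In each of these 3 genes the vehicle embryos of day 5 were the highest of the 4 groups. That order is not particular to them: TCP1, HSPD1 and HSPH1 had it too, while CALR, for one, did not. The 3 genes were picked by their nicotine values at day 5 or their difference between days, so the order follows in part from the choice. On the log2 scale and relative to vehicle at day 5, HSPA13 stood at -0.48 in nicotine at day 5, -0.47 in nicotine at day 7 and -0.68 in vehicle at day 7, from the authors' deposited tables. CANX stood at -0.22 in nicotine at day 5, -0.13 in nicotine at day 7 and -0.31 in vehicle at day 7, from the authors' deposited tables. BAG5 stood at -0.36 in nicotine at day 5, -0.28 in nicotine at day 7 and -0.36 in vehicle at day 7, from the authors' deposited tables. Day 7 against day 5 was accordingly lower in vehicle embryos, with HSPA13 at -0.68 ± 0.12 (adjusted p = 5.45e-07), CANX at -0.31 ± 0.07 (adjusted p = 7.41e-05) and BAG5 at -0.36 ± 0.11 (adjusted p = 0.00319), per the authors' deposited table. In nicotine embryos HSPA13 had 0.01 ± 0.12 (adjusted p = 0.982), CANX 0.09 ± 0.07 (adjusted p = 0.349) and BAG5 0.08 ± 0.11 (adjusted p = 0.647), by the authors' deposited table. These comparisons share the vehicle embryos of day 5, so they are views of the same libraries and do not back each other up. Counts per library of the 3 genes were not analysed here, so their spread over embryos and the effect of leaving out 1 library cannot be given.

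Across the members, the log2 fold change of nicotine at day 5 and at day 7, which share no libraries, had a Pearson r of -0.59 and a Spearman rho of -0.29 over 66 genes in the authors' deposited tables. Over loci with a symbol these were -0.26 and -0.24 in the authors' deposited tables. HSPB3 lies far from the other members in both. The nicotine effect at day 5 was also lower for genes with a longer span in the GRCg7b annotation, with a Spearman rho of -0.29 over 65 members and -0.37 over 8682 loci with a symbol, from the authors' deposited table. Genes are not independent replicates, and both correlations are descriptions.

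Outside the rule, the authors' deposited table for nicotine at day 5 called 1 of 10 unfolded protein response genes with an adjusted p. None of 11 was called at day 7. Among all loci the shares called were 2.72% at day 5 and 0.393% at day 7. For the difference 1 of 10 was higher and 1 lower, where 2.25% of all loci were called. HERPUD1, an ER membrane protein of the degradation pathway, was higher in nicotine embryos at day 5, at 0.45 (adjusted p = 0.0425), and had -0.19 at day 7, in the authors' deposited table. Its difference between days was -0.65 (adjusted p = 0.0415) in the authors' deposited table. EIF2AK3 (PERK), a kinase that slows translation when proteins misfold in the ER, had a difference of 0.58 (adjusted p = 0.0208), with 0.25 at day 7 and -0.33 at day 5, neither of which passed in the authors' deposited tables. No gene on the co-chaperone, prefoldin, mitochondrial or other ER folding lists was called in either nicotine comparison or in the difference. Among the markers, ISL1 of motor neurons (0.65, adjusted p = 0.0338) and NKX6-1 of ventral progenitors (0.51, adjusted p = 0.0348) were higher in nicotine embryos at day 5, and CDH1 of epithelia was lower at day 7 (-0.61, adjusted p = 0.032), in the authors' deposited tables. The neuron list did not move together at day 5, with a median of -0.00 and 4 of 7 genes below 0, among them the motor neuron genes CHAT (-0.97 ± 0.33, no adjusted p) and SLC18A3 (-0.00), by the authors' deposited table. The 3 above 0 were ISL1, NEFM (0.59, adjusted p = 0.0841) and NEFL (0.45, adjusted p = 0.0956). All 4 tabled progenitor genes lay above 0 at day 5 (median 0.47). All 3 tabled epidermal genes lay below 0 at day 7 (median -0.61). Within these 2 lists only NKX6-1 and CDH1 were called. The muscle myosin MYH15 differed between the days, by 1.06 (adjusted p = 0.0205), in the authors' deposited table. The part of these cell types in the nicotine results for HSPA13, BAG5 and CANX was not tested.

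Read counts per library could be tied to 2 members, the small heat shock proteins HSPB3 and HSPB7, both known from skeletal or heart muscle in mammals. Both were close to the limit of detection. With edgeR's quasi-likelihood test on 18394 loci, 0 loci were called for nicotine at day 5, 0 at day 7 and 0 for their difference (0% of loci each). DESeq2 called 286, 36 and 265 loci there. By edgeR 29.6% of loci were called between the days in nicotine embryos and 37.2% in vehicle embryos. HSPB7 passed the filter on low counts and HSPB3 did not, so HSPB3's test comes from a fit without that filter. Standard errors given with edgeR values were recovered from the log2 fold change and the F statistic of its test, since edgeR's test reports none.

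HSPB3 had 5, 11, 12 and 16 counts in nicotine embryos at day 7 and 0, 2, 2 and 5 in nicotine embryos at day 5. Vehicle embryos had 4, 6, 7 and 2 counts at day 7 and 0, 7, 5 and 4 at day 5. The 3 highest libraries were nicotine libraries of day 7, and the fourth of that group lay among the others. CPM of HSPB3 and HSPB7 are scaled by library size adjusted with edgeR's TMM normalisation, unlike those of the library search above. HSPB3 had 0.451 ± 0.212 CPM in nicotine at day 7, 0.0957 ± 0.0907 in nicotine at day 5, 0.176 ± 0.0695 in vehicle at day 7 and 0.161 ± 0.114 in vehicle at day 5 (SD, n = 4 each). A library with 0 counts allows up to 0.134 CPM (3 counts) for the vehicle and 0.123 CPM for the nicotine library of day 5 concerned. The authors' deposited table called HSPB3 higher at day 7 in nicotine embryos, at 2.45 ± 0.92 (adjusted p = 0.0268), against 0.18 ± 0.89 (adjusted p = 0.908) in vehicle embryos. By edgeR without the filter the log2 fold change in nicotine embryos was 2.20 ± 0.88, with an adjusted p of 0.0944, which did not pass. The test and the loci adjusted over differ from those of the authors, so these values are not like for like. DESeq2 was run on the counts with the filter only, which left HSPB3 out. Its nicotine effect was 1.32 at day 7 (adjusted p = 0.983) and -0.76 at day 5 (adjusted p = 0.781) by edgeR, and the difference between days did not pass (2.08, adjusted p = 0.525).

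HSPB7 had 14, 22, 14 and 17 counts in nicotine embryos at day 7 and 14, 13, 0 and 19 in nicotine embryos at day 5. Vehicle embryos had 19, 25, 33 and 24 counts at day 7 and 11, 12, 13 and 6 at day 5. All vehicle libraries of day 7 lay above all vehicle libraries of day 5, whereas the nicotine groups of the 2 days overlapped and 1 nicotine library of day 5 had no count, which allows up to 0.142 CPM. Mean levels were 0.666 ± 0.124 CPM in nicotine at day 7, 0.465 ± 0.346 in nicotine at day 5, 0.951 ± 0.145 in vehicle at day 7 and 0.442 ± 0.148 in vehicle at day 5 (SD, n = 4 each). In vehicle embryos edgeR gave a log2 fold change of 1.10 ± 0.62 between the days (adjusted p = 0.186), and in nicotine embryos 0.51 ± 0.62 (adjusted p = 0.598). When only the vehicle libraries entered the fit, the vehicle value was 1.12 with an adjusted p of 0.0323. The nicotine effect was -0.51 ± 0.61 at day 7 (adjusted p = 1) and 0.08 ± 0.63 at day 5 (adjusted p = 0.970) by edgeR, and the difference between days was -0.59 ± 0.88 (adjusted p = 0.802). Muscle markers were mixed between the days, with a median of 0.14 and 4 of 6 genes above 0 in nicotine embryos and a median of -0.28 and 2 of 6 above 0 in vehicle embryos, in the authors' deposited tables. MYOD1 was called higher in both, at 1.85 in nicotine and 1.89 in vehicle embryos, while MYF5 (-0.87) and MYH15 (-1.04) were called lower in vehicle embryos, per the authors' deposited tables. The part of muscle in the values of HSPB3 and HSPB7 was not tested. With standard errors of this size, modest changes were not detectable. When the nicotine library of day 5 without a count was left out, HSPB7's nicotine effect at day 5 was 0.46 ± 0.36 by edgeR. Leaving out any other library of day 5 gave standard errors of 0.69 to 0.72, so HSPB7's error there rests in part on 1 library.

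**Figure D4:**
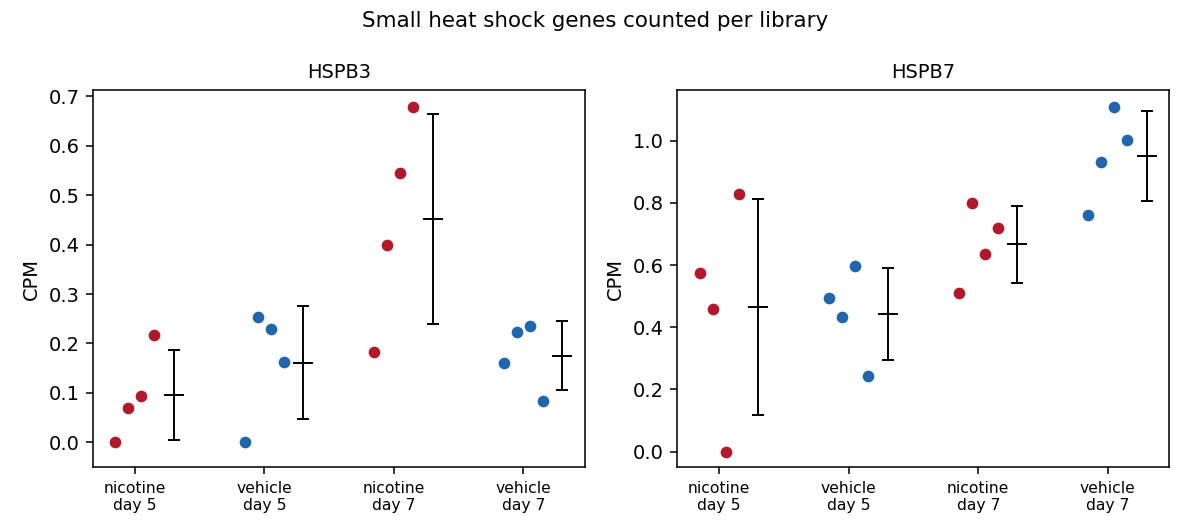
CPM of HSPB3 and HSPB7 in each of the 16 libraries. Points are libraries and bars beside them the mean ± SD of 4 libraries; groups are nicotine and vehicle at day 5 and at day 7. HSPB3 averaged 0.451 in nicotine at day 7 and at most 0.176 in the other groups, and HSPB7 averaged 0.951 in vehicle at day 7.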

How the data were processed

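RNA from 16 embryos was sequenced as paired reads, per the labels' protocols. Per the submitters' processing notes, the tools were DESeq2 (no version), StringTie 1.3.3b, HISAT2 2.0.5, Bowtie2 2.3.2, FastQC 0.11.5 and Trim Galore 0.4.4, with no step named for any. Not given in the sources used here are the genome build, annotation, strand setting and the design of the authors' fit, so no coordinates or sequences are printed, and reads of overlapping, antisense or near-identical genes cannot be told apart. The authors deposited whole-number counts per locus, not normalised, for 26943 loci, of which 1141 could be paired with a symbol. They also deposited 5 tables with, for each locus, a log2 fold change and its linear ratio, and p-values before and after adjustment. In 4 tables an adjusted p-value of exactly 1 also stands beside small p-values in the deposited files and was read as missing. The sign of each log2 fold change runs as tested condition over its reference: nicotine over vehicle, or day 7 over day 5.

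Table values were taken as deposited, and 66 members were found by symbol, 2 of them in the count matrix. The count test was edgeR 4.0.16 under R 4.3.3 (filterByExpr, TMM, quasi-likelihood F-test, Benjamini-Hochberg adjustment, adjusted p under 0.05), with 16 libraries in 1 fit of 4 groups. DESeq2 1.42.0 was the alternative tool, and the steps were tested on simulated counts. The simulation gave all loci the same spread and changed only loci with more counts than HSPB3 and HSPB7, so it does not cover these genes. Library totals were 21801247 to 29002315, and the floors for 0 counts cover counting error only. Intervals recovered from the tables rest on the authors' fit, whose spread between embryos they include. Correlations of same-numbered replicates ran from -0.24 to 0.36 and in no comparison were all over 0.1, so replicate numbers were not used as pairs. The 2 highest belong to replicate 2, whose libraries in 3 groups are among the 4 picked by the search for shared absent loci.

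Named genes are the members called in a nicotine comparison or in the difference between days, up to 4 per family and direction with the smallest adjusted p in each day comparison, the 3 with the smallest p where a nicotine comparison had no call, those in the count matrix, and a fixed set of well-known members. Some further members are named to complete a family. Members and gene lists were chosen with earlier results of these data known.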

Additional observations from a re-analysis of the deposited data

Results flagged for a closer look

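The nicotine effect differed between the 2 days for 2 chaperones, by the authors' own test of the difference (day 7 minus day 5). HSPA13 had a difference of 0.68 on the log2 scale and CANX of 0.40 in the authors' deposited table. The vehicle embryos of day 5 were the highest group in each, an order that other members such as TCP1 and HSPD1 share. HSPA13 and CANX are 3.23% of the 62 members with an adjusted p, close to the 2.25% called in either direction among 12651 loci in the authors' deposited table. Dixon's ratio, the gap to the nearest library over the group's range, singled out no library of HSPB3 or HSPB7 in 16 checks. In groups of 4 it can flag only a gap that takes up most of the range, so it cannot decide whether 1 library matters. The nicotine library of day 5 without an HSPB7 count was not flagged. Leaving that library out moved HSPB7's nicotine effect at day 5 from 0.08 ± 0.63 to 0.46 ± 0.36 by edgeR.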

How the results depend on the processing

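When the authors' deposited p-values were adjusted over every listed locus, 1 member in place of 2 was called for nicotine at day 5. Requiring a log2 fold change over 0.5 in size left 0 members for nicotine at day 5, 1 for the difference between days, 16 for day 7 against day 5 in nicotine (4 higher, 12 lower) and 20 in vehicle (4 higher, 16 lower), against 2, 2, 34 and 39 in the authors' deposited tables. The tables cannot be refitted, so no library could be left out for the 64 members without counts. On the counts, 1 member (HSPB7) in place of 0 was called for day 7 against day 5 in vehicle when only those libraries entered the fit, at a log2 fold change of 1.12. HSPB7, the only member past the filter on low counts, was called in no comparison when each library was left out in turn. With each library left out, HSPB7's nicotine effect at day 5 ran from -0.34 to 0.46 and HSPB3's day effect in vehicle from -0.26 to 0.43, so both change sign. Over the same exclusions HSPB7's day effect in nicotine ran from 0.12 to 0.92 and its difference between days from -0.98 to -0.17, and HSPB3's day effect in nicotine from 1.80 to 2.95, none of them past the threshold. With the replicate number as a block, HSPB7's nicotine effect at day 5 was -0.0097, against 0.08 without it. With the block HSPB7, again the only member tested, was called in no comparison. The block called 1, 0 and 1 of all loci in the nicotine comparisons of day 5, day 7 and their difference, against 0 each by edgeR without it. DESeq2 called 286, 36 and 265 loci there. DESeq2 size factors in edgeR moved the median of all loci by at most 0.042. Levels of the 64 members without counts are unknown, and HSPB3 and HSPB7 lie near the counting floor.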
